A study of Homo sapiens with 6 samples.

Results

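The E2F transcription factor family was examined as 10 genes taken by name from a table of 58299 genes: the activators E2F1, E2F2 and E2F3, the repressors E2F4, E2F5, E2F6, E2F7 and E2F8, and the dimerisation partners TFDP1 and TFDP2. All 10 were found in the table and all 10 passed the filter on low counts. The RNA came from AC16, an immortalised human line made by fusing ventricular heart cells with a fibroblast line, so it is a proliferating hybrid line and not adult heart muscle. One group of 3 libraries came from cells given the vehicle, DMSO at 0.1%, and the other 3 from cells given doxorubicin at 100 nM, both for 48 h. Doxorubicin is an anthracycline that traps topoisomerase II on DNA. Nothing in the labels says that the 3 samples of a group were separate cultures, so a p-value here measures the spread between samples that may be technical replicates.

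E2F proteins control the genes that a cell needs to copy its DNA. In resting cells, members of the retinoblastoma (pocket) protein family bind E2Fs and silence those genes. Cyclin-dependent kinases release the pocket proteins in late G1 and the activator E2Fs then switch the genes on. E2F4 and E2F5 act mainly with pocket proteins as repressors, E2F6 represses without them through a Polycomb-type complex, and E2F7 and E2F8 are atypical repressors that bind DNA without a DP partner. E2F1 to E2F6 all need TFDP1 or TFDP2 to bind DNA. Several family genes are themselves E2F targets, and E2F7 is also known as a target of p53. Whether pocket proteins and p53 work in this way in AC16 was not tested.

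Promoters were read from RefSeq (GRCh38.p14) as 300 bases each, 250 before and 50 after a start site, and were available for 8 of the 10 members, with E2F5 and E2F8 unmatched. They were searched on both strands for TTTCCCGC, TTTGGCGC and TTTCGCGC, forms of the E2F binding site. A match stood in 4 of the 8 members, E2F1, E2F2, E2F3 and TFDP1, against 902 of 27303 genes with a promoter in the table (3.30%) and 2.74% of 35114 promoters. The 120 bases before the start site are shown for those 4 and for E2F7, the member with the largest change after doxorubicin, written on the gene's strand with the matches in capitals. The windows are chr20:33686386-33686505 on the minus strand for E2F1, chr1:23531234-23531353 on the minus strand for E2F2, chr6:20401759-20401878 on the plus strand for E2F3, chr13:113584633-113584752 on the plus strand for TFDP1 and chr12:77065570-77065689 on the minus strand for E2F7.
E2F1: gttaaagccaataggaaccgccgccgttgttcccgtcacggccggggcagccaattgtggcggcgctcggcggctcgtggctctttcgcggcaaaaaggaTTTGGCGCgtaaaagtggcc
E2F2: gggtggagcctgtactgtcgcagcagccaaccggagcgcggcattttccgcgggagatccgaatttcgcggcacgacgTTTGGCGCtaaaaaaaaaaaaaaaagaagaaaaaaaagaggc
E2F3: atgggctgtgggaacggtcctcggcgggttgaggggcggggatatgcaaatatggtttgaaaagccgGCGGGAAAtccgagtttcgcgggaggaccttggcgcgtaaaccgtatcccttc
TFDP1: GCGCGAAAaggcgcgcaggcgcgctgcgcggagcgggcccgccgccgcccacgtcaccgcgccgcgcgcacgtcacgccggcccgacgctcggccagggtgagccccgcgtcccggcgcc
E2F7: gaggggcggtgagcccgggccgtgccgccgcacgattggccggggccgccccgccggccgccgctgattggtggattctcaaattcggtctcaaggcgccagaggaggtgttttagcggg
The matches began 20 bases before the start site in E2F1, 42 in E2F2, 53 in E2F3 and 120 in TFDP1. E2F1 and E2F2 carried the same letters, TTTGGCGC. E2F3 and TFDP1 matched on the other strand, as TTTCCCGC and TTTCGCGC. A second E2F3 window, at an internal start site, and the windows of E2F4, E2F6, E2F7 and TFDP2 held none of the 3 forms. With TTTGGCGC and TTTCGCGC only, 3 members matched, against 382 of 27303 genes (1.40%).

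Total counts per library ranged from 17252862 to 19571731. Doxorubicin changed most of the transcriptome: of 15358 tested genes, 32.7% were higher and 32.0% lower by edgeR's quasi-likelihood test at a Benjamini-Hochberg adjusted p under 0.05, together 64.7%. A call is therefore not rare here, and each count below is read against those shares. Doxorubicin replicate 1 stood apart from the other 2 doxorubicin libraries, with 26.1 CPM of the mitotic kinase gene PLK1 against 42.4 and 39.8, and 2329 CPM of the collagen gene COL1A1 against 3426 and 3713. Without it, 3 members rose and 6 fell, since E2F1, E2F2 and E2F4 then passed the test. Over all genes, 5005 of 15714 were then called higher and 4824 lower. With all libraries, ranges of the 2 groups did not overlap for 69.1% of genes. Values are TMM-scaled CPM, counts divided by a library size that is corrected so as to set the typical gene to no change, so they are relative to the rest of the transcriptome. In bulk RNA, fewer cells expressing a gene and less RNA per cell cannot be told apart, and whether the share of cycling cells moved the members was not tested. Of 12 cardiomyocyte markers, 0 passed the filter, and they summed to 0.671 to 1.49 CPM in DMSO and 1.32 to 2.05 CPM in doxorubicin. TNNT2, MYH6, MYH7, MYL2 and NKX2-5 had at most 2 counts in any library. ACTC1 had the most, with 5, 11 and 19 in DMSO and 1, 4 and 4 in doxorubicin. RYR2 went the other way, from 0 in DMSO to 9, 5 and 8, as did TNNI3 and ACTN2. All 10 fibroblast markers passed, summing to 24559 to 26693 CPM in DMSO and 14032 to 17822 CPM in doxorubicin. By these markers the labelled cardiomyocyte identity was not seen at the RNA level. Epithelial markers summed to 199 to 274 CPM in DMSO and 353 to 370 CPM in doxorubicin, and endothelial and leukocyte markers to at most 5.91 and 4.31 CPM in any library. The part of these markers' changes in the values below was not tested.

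The family split in both directions. Of the 10 members, 3 rose (E2F3, E2F7 and TFDP2), 3 fell (E2F6, E2F8 and TFDP1) and 4 (E2F1, E2F2, E2F4 and E2F5) were not called, so 60% were called against 64.7% of all tested genes. The median log2 fold change of the members was -0.19, beside -0.0013 over all tested genes. Among the 3 activators 1 rose and 0 fell. The count of 0 was the same with DESeq2, but 2 activators were lower at an unadjusted p under 0.05. Among the 5 repressors 1 rose and 2 fell. The DP partners moved in opposite directions. Libraries of the groups did not overlap for 3 members that lay higher and 5 that lay lower in doxorubicin, beside 34.8% and 34.3% of all tested genes. Activators and repressors therefore did not part as 2 blocks: each held a member that rose beside members that were lower or not called.

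**Figure D1:**
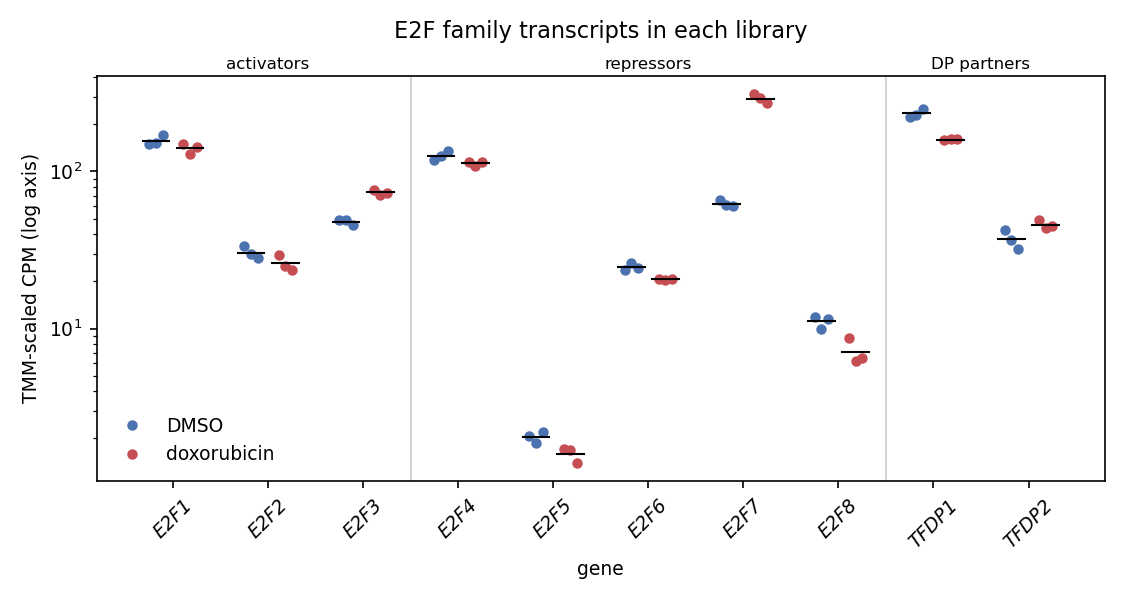
TMM-scaled CPM of the 10 E2F family genes on a log axis, 1 point per library, in 3 DMSO (blue) and 3 doxorubicin (red) libraries, with black lines at the group means. E2F7 stands apart, with 60.0 to 65.5 CPM in DMSO and 271 to 311 CPM in doxorubicin, while E2F1 overlaps between the groups.

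Among the activators, E2F1 (chr20:33675683-33686404, GRCh38) is the founding member and the one most closely tied to S-phase entry. It had 149, 151 and 170 CPM in DMSO replicates 1 to 3 and 149, 130 and 144 CPM in doxorubicin replicates 1 to 3. The groups overlapped, since doxorubicin replicate 1 lay level with DMSO replicate 1. Its log2 fold change was -0.16 ± 0.07 (SE, 3 libraries per group) and was not called (adjusted p = 0.067, edgeR). Without doxorubicin replicate 1 it was called lower, at -0.20 (adjusted p = 0.023), and likewise without DMSO replicate 1 (adjusted p = 0.037). Over all alternatives the adjusted p ran from 0.023 to 0.29.

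E2F2 (chr1:23506430-23531220) is a close relative of E2F1 that is also released from RB in late G1. Its level was 33.4, 29.8 and 28.3 CPM in DMSO and 29.3, 25.1 and 23.6 CPM in doxorubicin. Only doxorubicin replicate 1 reached into the DMSO range. The log2 fold change of -0.23 ± 0.10 SE fell just short of a call (adjusted p = 0.051, edgeR). It was called without doxorubicin replicate 1 (-0.32, adjusted p = 0.0072) or without DMSO replicate 3 (-0.28, adjusted p = 0.030), and over all alternatives the adjusted p ran from 0.0072 to 0.25. E2F1 and E2F2 thus both had small negative values at the edge of the threshold. So did E2F4 (-0.15, adjusted p = 0.053, edgeR), whose promoter held no match. Of the other members with a match, E2F3 was called higher and TFDP1 lower.

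E2F3 (chr6:20401906-20493715) was the activator that rose. It encodes a long and a short protein from separate start sites, which a count per gene does not separate. It had 49.5, 49.3 and 45.3 CPM in DMSO and 76.6, 70.6 and 73.5 CPM in doxorubicin. All doxorubicin libraries lay above all DMSO libraries. The rise was 1.53-fold, a log2 fold change of 0.61 ± 0.07 SE (adjusted p = 9.3e-07, edgeR), and it was called under all 13 alternatives, between 0.57 and 0.66. The ratio of E2F3 to E2F1, per kb of exon, was 0.149 ± 0.018 (SD, n = 3) in DMSO and 0.254 ± 0.0089 in doxorubicin, with no overlap. E2F1 nevertheless stayed the most abundant activator, at 56.2 ± 3.97 against 14.2 ± 0.585 CPM per kb in doxorubicin.

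**Figure D2:**
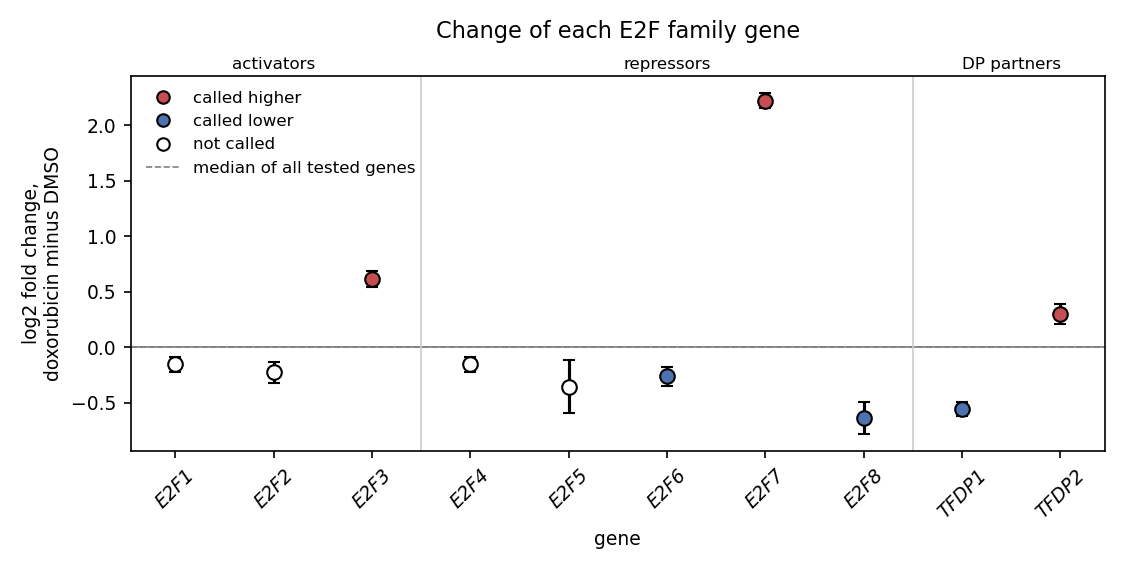
Log2 fold change (doxorubicin minus DMSO) of each member with its SE from edgeR, grouped by role, with filled points for called genes and open points for genes not called; the dashed line is the median of all tested genes. E2F7 at 2.22 lies far above the next member, E2F3 at 0.61, and E2F8 at -0.64 and TFDP1 at -0.56 are the lowest.

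Of the 3 classical repressors only E2F6 fell by the test, and E2F4 and E2F5 were not called. E2F4 (chr16:67192169-67198918) is the main E2F of the DREAM complex, which silences cell cycle genes in resting and p53-arrested cells. It had 118, 125 and 135 CPM in DMSO and 116, 108 and 116 CPM in doxorubicin. The groups did not overlap, but the gap was narrow and the log2 fold change of -0.15 ± 0.07 SE was not called (adjusted p = 0.053, edgeR; 0.019 to 0.21 over the alternatives). It was called without DMSO replicate 1 (-0.21) or without doxorubicin replicate 1 (-0.17). The ratio of E2F1 to E2F4 per kb was 1.78 ± 0.037 in DMSO and 1.78 ± 0.064 in doxorubicin (SD, n = 3), so the most abundant activator and the most abundant classical repressor kept the same proportion within the spread of the libraries.

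E2F5 (chr8:85177225-85217158), a second partner of the p107 and p130 pocket proteins, was the scarcest member. It had 37, 36 and 40 counts in DMSO and 30, 32 and 25 in doxorubicin. Exact 95% counting intervals ran from 26.1 to 51.0 for DMSO replicate 1 and from 16.2 to 36.9 for doxorubicin replicate 3, and they cover counting error only. The values did not overlap between the groups, yet these intervals do, and the log2 fold change of -0.36 ± 0.24 SE was not called (adjusted p = 0.20, edgeR). Exons of other genes cover 18.6% of its exon bases, the most in opposite-strand RBIS with 539 counts against 200, and unstranded reads cannot be assigned between them.

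E2F6 (chr2:11444375-11466177), the repressor without a pocket-binding domain, had 23.7, 26.2 and 24.2 CPM in DMSO and 20.8, 20.4 and 20.5 CPM in doxorubicin. Doxorubicin libraries were all lower and lay close together. It fell 1.20-fold (log2 fold change -0.26 ± 0.09 SE, adjusted p = 0.014, edgeR). The call was lost without DMSO replicate 2 (adjusted p = 0.068) and without doxorubicin replicate 3 (adjusted p = 0.051).

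The atypical repressors moved apart. E2F7 (chr12:77021247-77065580), which represses E2F1 and other G1/S genes, had 65.5, 61.5 and 60.0 CPM in DMSO and 311, 292 and 271 CPM in doxorubicin. The lowest doxorubicin library was more than 4 times the highest DMSO library. It rose 4.67-fold, a log2 fold change of 2.22 ± 0.07 SE (adjusted p = 2.0e-13, edgeR), between 2.18 and 2.28 under the 13 alternatives. It was the 1 member that changed at least 2-fold. E2F8 (chr11:19224063-19241620), its closest relative, which forms homodimers or pairs with E2F7, had 11.8, 10.0 and 11.4 CPM in DMSO and 8.69, 6.23 and 6.49 CPM in doxorubicin. The doxorubicin libraries all lay lower, replicate 1 nearest to DMSO. E2F8 fell 1.56-fold (log2 fold change -0.64 ± 0.15 SE, adjusted p = 0.0012, edgeR), between -0.80 and -0.55 under the alternatives. Per kb of exon, E2F7 was 3.71 ± 0.303 times E2F8 in DMSO and 27.2 ± 3.66 times E2F8 in doxorubicin (SD, n = 3).

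The DP partners also moved apart. TFDP1 (chr13:113584721-113641470), the main DP protein, had 222, 230 and 251 CPM in DMSO and 158, 160 and 160 CPM in doxorubicin. All doxorubicin libraries were lower and nearly equal. TFDP1 fell 1.47-fold (log2 fold change -0.56 ± 0.06 SE, adjusted p = 9.1e-07, edgeR), called under all 13 alternatives. TFDP2 (chr3:141944428-142149544) had 42.6, 36.9 and 32.3 CPM in DMSO and 48.8, 43.5 and 45.1 CPM in doxorubicin. The groups were separated only narrowly, since DMSO replicate 1 came close to doxorubicin replicate 2. It rose 1.23-fold (0.30 ± 0.09 SE on the log2 scale, adjusted p = 0.011 by edgeR), and the call was lost without DMSO replicate 3 (adjusted p = 0.067). The ratio of TFDP1 to TFDP2 per kb was 20.4 ± 4.11 in DMSO and 11.1 ± 0.715 in doxorubicin (SD, n = 3).

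Few reads were assigned to near-identical copies of the members. The processed pseudogenes of E2F3, E2F4, E2F6 and TFDP1 in the table had at most 14 counts over all 6 libraries (TFDP1P2), against 21617 for TFDP1 itself, and TFDP3, a related gene, had 0 counts. The treatment of reads that map equally well to a gene and its copy was not stated, so their part in these values was not tested. Exons of other genes cover none of the exon bases of the members other than E2F5 and E2F8, and 0.169% in E2F8.

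Levels of different genes were then compared per kb of exon. That length sums all annotated exons of a gene and can exceed the transcript expressed, so the order depends on it. In DMSO the order was TFDP1 (62.7 ± 4.0 CPM per kb, SD, n = 3), E2F1 (62.6 ± 4.71), E2F4 (35.2 ± 2.43), E2F7 (9.89 ± 0.448), E2F3 (9.30 ± 0.452), E2F6 (6.08 ± 0.323), E2F2 (5.58 ± 0.479), TFDP2 (3.13 ± 0.435), E2F8 (2.68 ± 0.234) and E2F5 (0.346 ± 0.0283). Ranges overlapped for 4 pairs of neighbours, TFDP1 with E2F1, E2F7 with E2F3, E2F6 with E2F2 and TFDP2 with E2F8. In doxorubicin the order was E2F1 (56.2 ± 3.97), E2F7 (46.2 ± 3.13), TFDP1 (42.6 ± 0.302), E2F4 (31.6 ± 1.17), E2F3 (14.2 ± 0.585), E2F6 (5.06 ± 0.0471), E2F2 (4.77 ± 0.542), TFDP2 (3.85 ± 0.228), E2F8 (1.72 ± 0.327) and E2F5 (0.269 ± 0.0290). Only E2F6 and E2F2 overlapped. E2F7 moved from the fourth place to the second, past E2F4 and TFDP1, and the lower part of the order was the same in both groups.

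The repressor share of the family pool grew through E2F7. Of all family transcripts counted per kb, repressors made up 27.5%, 27.7% and 27.1% in the DMSO libraries and 41.4%, 41.7% and 40.1% in the doxorubicin libraries, with no overlap. Activators made up 39.2% ± 0.268 in DMSO and 36.4% ± 1.17 in doxorubicin, and DP partners 33.3% ± 0.237 and 22.5% ± 0.866 (SD, n = 3). Such shares are parts of a whole, so a gain of one lowers the others. E2F7 alone went from 5.02% ± 0.442 to 22.4% ± 1.17 of the pool and from 18.3% ± 1.48 to 54.4% ± 1.76 of the repressors. The ratio of repressors to activators was 0.699 ± 0.012 in DMSO and 1.13 ± 0.055 in doxorubicin. With E2F7 left out it moved the other way, from 0.571 ± 0.012 to 0.515 ± 0.015. The summed activators were level, at 75.1, 75.5 and 82.0 CPM per kb in DMSO and 79.7, 70.1 and 76.0 in doxorubicin, and the summed level of all 10 members overlapped between the groups as well (198 ± 9.45 and 207 ± 7.78).

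**Figure D3:**
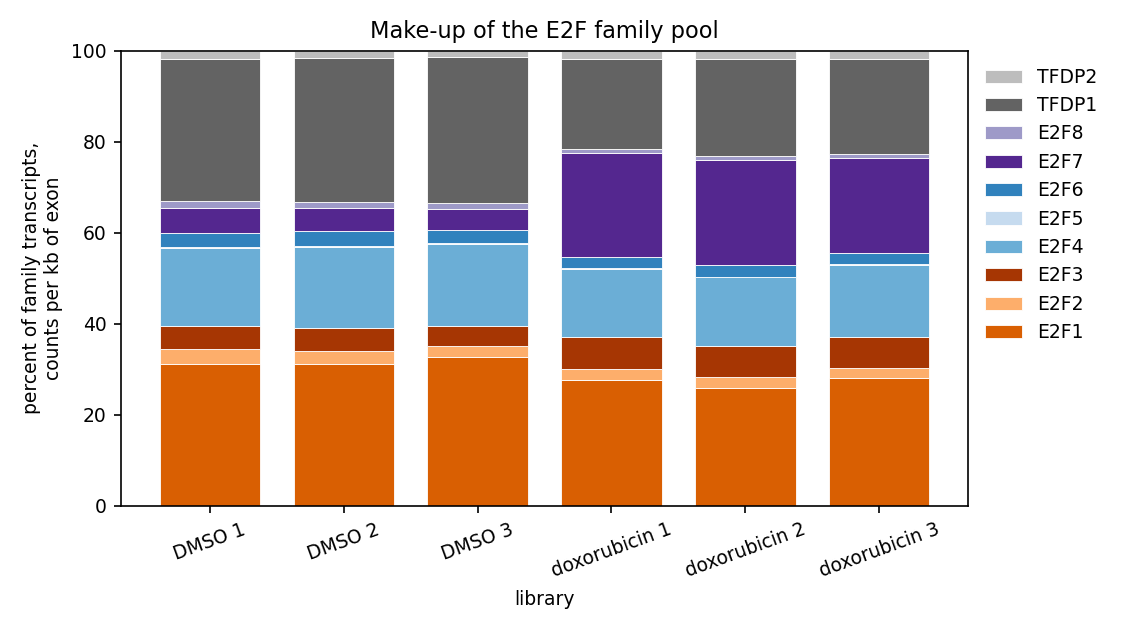
Make-up of the E2F family pool in each of the 6 libraries: each bar stacks the 10 members as a percent of their summed counts per kb of exon. E2F7 (dark purple) widens from 5.02% in DMSO to 22.4% in doxorubicin on average, and TFDP1 (dark grey) narrows from 31.7% to 20.6%.

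The balance between E2Fs and their DP partners shifted too. Summed per kb, DP transcripts were 63.0, 64.7 and 69.9 CPM per kb in DMSO and 46.3, 46.4 and 46.5 in doxorubicin. The ratio of the DP-dependent members, E2F1 to E2F6, to the DP partners was 1.81 ± 0.0041 in DMSO and 2.42 ± 0.130 in doxorubicin (SD, n = 3), without overlap. This is a ratio of transcripts and not of proteins.

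By a rule on distance over the 6 libraries, the protein-coding genes with the pattern most like E2F7 were STX6, a Golgi and endosome syntaxin (distance 0.083 on the centred log2 CPM scale, log2 fold change 2.22), AOC3, an amine oxidase (0.108, 2.28), and PRKX, a protein kinase (0.120, 2.15). For E2F8, the member with the lowest fold change, they were UBOX5 (0.167, -0.54), PDCD2L (0.178, -0.67) and EXD3 (0.221, -0.60). The search covered 11603 genes, and with 2 groups it finds mainly genes with a fold change of the same size.

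The pocket proteins, to which E2Fs bind, moved little apart from 1. RB1, the retinoblastoma protein gene, had 109, 97.7 and 95.4 CPM in DMSO and 89.9, 101 and 95.1 CPM in doxorubicin, overlapping (log2 fold change -0.08 ± 0.07 SE, adjusted p = 0.34, edgeR). RBL2, which encodes p130, also overlapped (0.04 ± 0.07, adjusted p = 0.69). RBL1, which encodes p107 and is itself an E2F target, fell 1.63-fold from 65.2 ± 2.5 to 40.1 ± 2.14 CPM (SD, n = 3; adjusted p = 3.1e-07, edgeR). Of the 3, 0 rose by edgeR, also at an unadjusted p under 0.05 and with DESeq2.

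The MuvB core and its partners join E2F4 in DREAM or act with B-MYB and FOXM1. Of their 7 genes, 3 fell (FOXM1, LIN9 and LIN52) and 0 rose. The share that fell, 42.9%, is near the 32.0% of all tested genes, and 2 fell with DESeq2. The count of 0 was the same at an unadjusted p under 0.05 and with DESeq2. FOXM1, a forkhead factor for mitotic genes, fell from 364 ± 22.4 to 135 ± 9.04 CPM (SD, n = 3), a log2 fold change of -1.43 ± 0.07 SE (adjusted p = 3.5e-11, edgeR). Of its exon bases, 15.9% lie in exons of other genes. MYBL2, which encodes B-MYB and is a classical E2F target, had 304, 285 and 321 CPM in DMSO and 264, 299 and 297 CPM in doxorubicin. Those ranges overlapped and the log2 fold change was -0.08 ± 0.07 SE (adjusted p = 0.31). LIN9 (-0.35) lost its call without doxorubicin replicate 3, and LIN52 (-0.22) lost it without DMSO replicate 1 or 3, without doxorubicin replicate 1 or 2, with library totals only and with DESeq2.

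Upstream of the pocket proteins, the G1 cyclins and kinases moved both ways: of 7 tested, 3 rose and 3 fell. Each is 42.9%, against 32.7% higher and 32.0% lower of all tested genes. CCND1, cyclin D1, rose 3.11-fold from 175 ± 48.3 to 546 ± 31.2 CPM (SD, n = 3; adjusted p = 0.0017, edgeR). CDK6 and CCND3 rose 1.34-fold and 1.19-fold, the latter not called without DMSO replicate 1 (adjusted p = 0.054). CDK4 fell 1.83-fold, CCNE2 1.49-fold and CDK2 1.16-fold. CCNE1, cyclin E1 and an E2F target, was low and overlapped between the groups, at 3.74 ± 0.533 and 4.17 ± 0.791 CPM (log2 fold change 0.15, adjusted p = 0.51). Opposite-strand exons of TSPAN31, with 1537 counts against 11359, cover 43.2% of the exon bases of CDK4. For CCNE2 the share is 37.1%, mostly INTS8 with 4461 counts against 1471, so the CCNE2 value is uncertain.

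Of 7 CDK inhibitor genes 3 rose and 4 fell (42.9% and 57.1%, against 32.7% and 32.0% of all tested genes). CDKN1A, which encodes p21 and keeps pocket proteins active, had 162 to 182 CPM in DMSO and 5811 to 6450 CPM in doxorubicin, a log2 fold change of 5.16 ± 0.08 SE. CDKN2B rose by 0.80 on the log2 scale, and CDKN1C rose by 2.20 from a level of 0.166 ± 0.0982 CPM. CDKN1C had at most 4 counts in a DMSO library and 12 to 18 in doxorubicin, so it passed the filter only through the group where it is high. With at least 1 CPM required in 3 libraries it was not tested and 2 inhibitors rose. CDKN2C, CDKN1B, CDKN2D and CDKN2A fell, with log2 fold changes of -3.03, -1.56, -1.07 and -0.73.

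Genes classically listed as G1/S targets of E2F leaned downward, and which family members moved them was not tested. Of 50 G1/S E2F target genes, 49 were tested: 36 fell, 5 rose and 8 were not called, so 73.5% fell against 32.0% of all tested genes. Their median was -0.39 on the log2 scale. For 4 of the 49 the drop reached 2-fold, beside 961 of all 15358 tested genes. CCNA2, cyclin A2, fell by 2.05 and the helicase gene MCM6 fell by 1.43 on the log2 scale. The 5 that rose were PCNA, the DNA polymerase clamp and a known p53 target (1.21), DTL, a ubiquitin ligase adaptor that acts on PCNA-bound proteins (0.65), TYMS (0.53) and TK1 (0.32), both for thymidine nucleotides, and GINS1 (0.21). PCNA had 321, 313 and 301 CPM in DMSO and 758, 697 and 702 CPM in doxorubicin, with no overlap. TYMS has 26.2% of its exon bases in exons of other genes, mainly opposite-strand ENOSF1. GINS1 lost its call without DMSO replicate 2 or 3, without doxorubicin replicate 1, with DESeq2 and with no filter.

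Genes that peak later, in G2 and mitosis, fell further than the G1/S targets. The list of 30 G2/M genes had 29 that fell (96.7%, against 32.0% of all tested genes), and its median was -1.75 on the log2 scale. For 25 of the 30 the drop reached 2-fold, beside 961 of all 15358 tested genes. PLK1 (-3.19) and CCNB1 (-2.85) had the lowest values, and PTTG1 (0.22), the securin gene, was the exception that rose. The difference between the 2 lists was not tested. Their promoters differed in letters: the E2F forms stood in 28 of 43 G1/S genes with a promoter (65.1%) and in 2 of 24 G2/M genes (8.33%). TTTGAA, the core of the cell cycle homology region through which MuvB binds, stood in 3 G1/S genes (6.98%) and in 15 G2/M genes (62.5%), against 18.2% of all genes with a promoter. A match is a description of these 300 bases and not a measured binding site.

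**Figure D4:**
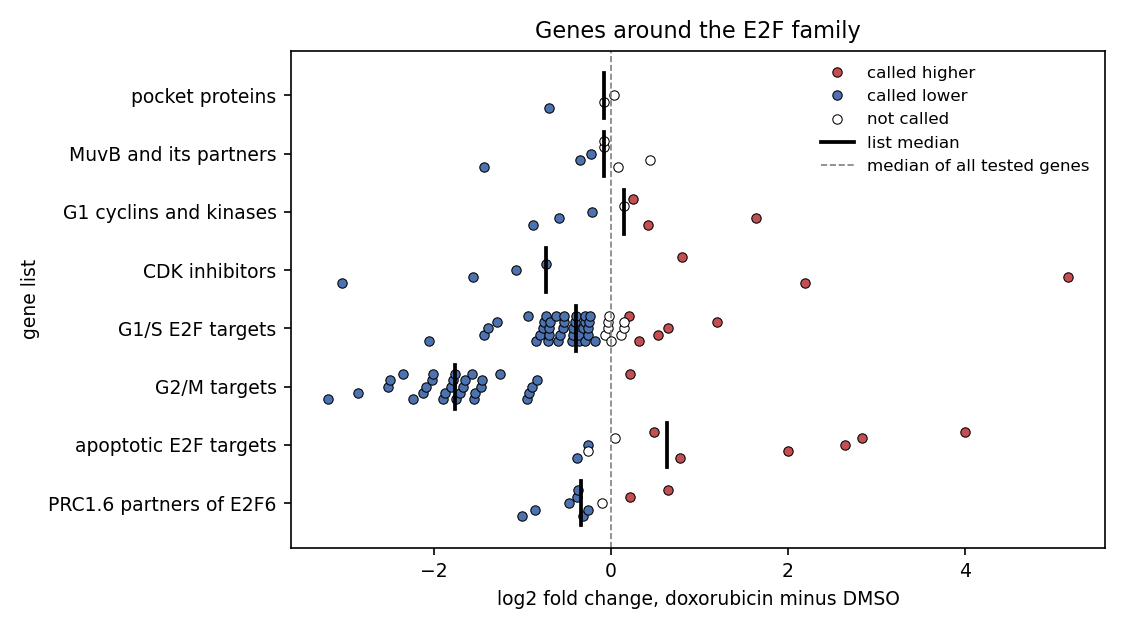
Log2 fold change of every tested gene in 8 lists around the E2F family, 1 point per gene, coloured by its edgeR call, with a black bar at each list's median and a dashed line at the median of all tested genes. G2/M targets centre on -1.75 and G1/S targets on -0.39, while CDKN1A (5.16) is the outermost CDK inhibitor.

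Apoptotic genes that E2F1 can activate, several of which p53 also controls, mostly rose. Of 10, 6 rose (60%, against 32.7% of all tested genes), 2 fell and 2 were not called, with a median of 0.64. CASP9, an initiator caspase, fell by 0.38 on the log2 scale. BBC3, which encodes PUMA, rose by 4.0 and BCL2L11, which encodes BIM, by 2.84. Of the BCL2L11 exon bases 10.9% lie in exons of opposite-strand MIR4435-2HG, which had 3824 counts against 2091. TP73, often taken as a direct E2F1 target, was not called, at 7.76 CPM in DMSO and 6.53 CPM in doxorubicin (adjusted p = 0.21, edgeR).

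Among 10 partners of E2F6 in the PRC1.6 Polycomb complex, 7 fell, 2 rose and 1 was not called. Thus 70% fell against 32.0% of all tested genes, and the median log2 fold change was -0.34. RNF2, a ubiquitin ligase subunit, fell 2.0-fold from 36.1 ± 0.557 to 18.04 ± 0.789 CPM (SD, n = 3; adjusted p = 2.4e-08, edgeR). CBX3 fell 1.8-fold, with 7.93% of its exon bases shared with opposite-strand HNRNPA2B1, a far more abundant gene (96621 counts against 19529). MAX rose 1.57-fold. RYBP (0.22, adjusted p = 0.048) had overlapping groups and lost its call without DMSO replicate 2 or 3, without doxorubicin replicate 2 or 3, with DESeq2 and with no filter, so 1 member then rose. Of 8 germline genes that E2F6 silences, 1 passed the filter. STAG3, a meiotic cohesin subunit, rose from 1.06, 1.20 and 1.38 CPM in DMSO to 4.94, 6.97 and 4.2 CPM in doxorubicin (log2 fold change 2.14 ± 0.24 SE, adjusted p = 9.7e-07, edgeR). It has 32.3% of its exon bases in exons of other genes. DAZL had 0 counts in every DMSO library and 8, 5 and 6 in doxorubicin, and DDX4 had 0, 0 and 1 and then 9, 10 and 5. These counts are too low for the main test. With no filter 4 members of the list were called higher, beside 6100 of 34828 genes then tested. DAZL enters that test only through its doxorubicin counts, and DDX4 nearly so. Calls of such genes are therefore no separate support for a rise. For the list, the count was 2 when DMSO replicate 1 or 2, or doxorubicin replicate 3, was left out. TUBA3D had 6, 7 and 13 counts and then 9, 5 and 5. Genes of other lineages also rose from 0 counts in DMSO, such as RYR2 (9, 5 and 8 in doxorubicin) and LYZ (7, 7 and 3), while ACTC1 fell. Libraries held counts for 22431 to 22792 genes in DMSO and 26637 to 27359 in doxorubicin. Whether E2F6 had a part was not tested.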

How the data were processed

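Raw counts per gene, 1 column per library, were deposited by the authors in the featureCounts layout, per the file headers. STAR, SAMtools, Subread, featureCounts and the build GRCh38 (hg38) are named in the submitters' processing notes, and versions and settings are not given in the sources used here. The poly(A) libraries were unstranded, per the labels' protocols. The table also gives each gene's summed exon length. Symbols were matched by Ensembl ID for 57717 of 58299 rows, and gene types and exons came from GENCODE release 29. Columns of other samples numbered 0.

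The test was edgeR's (version 4.0.16, under R 4.3.3), with filterByExpr (minimum count 10, minimum total 15), TMM scaling, robust quasi-likelihood F test without covariates, two-sided, Benjamini-Hochberg adjustment over 15358 genes, called at an adjusted p under 0.05. Each SE was obtained as the log2 fold change over the root of its F statistic. On simulated counts with 200 changed genes, the procedure recovered 62% of 1.5-fold, 73.5% of 2-fold and 98.0% of 4-fold changes. It called 0.134% of unchanged genes. No change below 1.5-fold was simulated, and far fewer genes changed than were called here. Every pair of libraries within a group differed by more than sampling noise (chi-square per degree of freedom 4.81 to 8.66 in DMSO; in doxorubicin 2.82 between replicates 2 and 3, and 9.39 and 9.12 between replicate 1 and those).

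Members and gene lists were chosen with earlier results of these data known. Named genes are the members, 9 fixed pathway genes, up to 2 called genes per list and direction, all called genes where 5 or fewer moved in a direction, and the 3 nearest patterns. Of the genes this rule selects, 1 is not reported here. Other genes were named after their values were seen. Alternatives were DESeq2 1.42.0, other scalings and filters, a replicate block and each library left out.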

Additional observations from a re-analysis of the deposited data

How the results depend on the processing

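Calls of the members were the same under 117 of 130 combinations of member and alternative; none changed direction. E2F3, E2F7, E2F8 and TFDP1 were called under all 13 alternatives and E2F5 under 0. With no filter, 2 activators (E2F1 and E2F2) and E2F4 were called lower; the median log2 fold change of all genes then shifted to 0.37, and with DESeq2 to 0.40, where many more low genes were tested. With 1 library left out, lower activators numbered 0 to 2 (0 with all libraries), lower repressors 1 to 3 (2 with all) and higher DP partners 0 to 1 (1 with all). Over all genes, 5190 of 34828 were called lower with no filter. With 1 library left out, 4519 to 4824 genes were called lower, with 15676 to 15858 tested. The replicate block gave 1 lower activator (E2F2, adjusted p = 0.026); the numbers did not pair the libraries (same-numbered correlations 0.052, -0.023 and 0.027), and the labels name no shared culture. The block also called 1 leukocyte marker higher.

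Higher PRC1.6 partners numbered 1 with no filter or DESeq2 and 1 to 2 with a library left out. Higher germline genes numbered 4 with no filter or DESeq2 and 1 to 2 with a library left out. Higher fibroblast markers numbered 1 with library totals only and 0 to 1 with a library left out, higher endothelial markers 2 with no filter and 0 with at least 1 CPM in 3 libraries, and higher leukocyte markers 2 with no filter or DESeq2 and 0 to 1 with a library left out. The cause was not tested, other than that a filter sets which low genes enter. Over all genes, 6100 of 34828 were called higher with no filter and 5008 of 23352 with DESeq2. With a library left out, 4703 to 5005 genes were called higher, with 15676 to 15858 tested. With library totals only the count was 5320 of 15358, and with at least 1 CPM in 3 libraries 4738 of 13991. DAZL and LYZ had 0 counts in DMSO, so they could enter a test only through doxorubicin.

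Counts not divided by length gave shares of 32.1% activators, 30.8% repressors and 37.1% DP partners in DMSO, and 27.3%, 49.3% and 23.3% in doxorubicin, since long transcripts such as E2F7 then weigh more. By such counts E2F7 was the largest member in doxorubicin, at 33.1%, before TFDP1 at 18.1% and E2F1 at 16.0%. Neighbours with overlapping levels numbered 2 to 4 in DMSO and 0 to 1 in doxorubicin with a library left out, an alternative chosen after seeing the data. Depth limits E2F5 most, at 25 to 40 counts per library.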

Other observations

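Across the transcriptome, tested genes with one of the 3 E2F forms in a promoter leaned lower after doxorubicin. Of 619 such genes 42.6% were called lower and 25.2% higher, with a median log2 fold change of -0.16, beside 34.2% lower, 33.2% higher and a median of -0.02 in 10587 genes with a promoter without a match. With TTTGGCGC and TTTCGCGC only, 43.6% of 273 genes were lower, with a median of -0.21. Within the G1/S list the order was the other way: the 28 genes with a match had a median of -0.27 and 17 of them fell, while the 15 without had a median of -0.69 and 13 fell. These are descriptions of promoter letters, with no test.

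Markers of other cell types also differed. KRT14, an epithelial keratin with close paralogs that can share reads, rose from 1.62 ± 1.00 to 12.1 ± 2.10 CPM (SD, n = 3), a log2 fold change of 2.91 (adjusted p = 1.2e-05, edgeR). KRT8, KRT18 and CDH1 rose by 1.30, 0.39 and 0.84 on the log2 scale. CDH1 had no call when DMSO replicate 1 or doxorubicin replicate 2 was left out and with DESeq2. KRT8 and KRT18 lie on opposite strands and share 525 exon bases, between which unstranded reads cannot be assigned. EPCAM and KRT5 did not pass the filter. EPCAM had 11, 14 and 5 counts in DMSO and 8, 8 and 7 in doxorubicin, and KRT5 had 4 counts over all libraries. PECAM1, an endothelial marker, was called higher at 0.309 ± 0.0714 against 1.06 ± 0.242 CPM, but with 5 to 7 counts per DMSO library and 15 to 25 in doxorubicin it passed the filter only through the group where it is high. Among fibroblast markers 6 of 10 fell (60%, against 32.0% of all tested genes), with COL1A1 (-1.64) and PDGFRB (-1.29) the lowest.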
